A study of Mus musculus with 8 samples.

Results

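The EphB receptor genes (Ephb1, Ephb2, Ephb3, Ephb4 and Ephb6) and the ephrin-B ligand genes (Efnb1, Efnb2 and Efnb3) were taken by gene symbol from the count tables of mouse pancreatic tumour cells, which gave 8 members among 39179 genes. 7 of the 8 had enough reads to be tested, among 16192 genes tested in all, and Ephb1 did not. RNA was sequenced from pancreatic ductal adenocarcinoma (PDAC) cells of the genetically engineered iKPC mouse model. 4 iKPC cell lines served as replicates, and each was sequenced once with overexpression of WT-USP21 and once with overexpression of ED-USP21, which gave 8 libraries, 4 per construct. USP21 removes ubiquitin from proteins, and the labels leave the abbreviation ED unexplained.

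Cells of both groups carried the same engineered alleles, among them ROSA_rtTA, which supplies a doxycycline-dependent activator, and p48-Cre, a recombinase directed to the pancreas. The background strain is FVB/C57Bl6 for lines 1 and 2 and C57BL/6 for lines 3 and 4. Each group therefore holds the same 4 lines, the construct being the only labelled difference. Cells without a USP21 construct are not among the libraries analysed here. The sources used here give neither the promoter of the constructs nor whether cultures had doxycycline.

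Libraries held 72828184 to 107551210 reads assigned to genes. Usp21 itself stood at 147 to 944 CPM, reads scaled to a common library total, in the WT-USP21 libraries and at 1658 to 3133 CPM in the ED-USP21 libraries, so the amount of Usp21 RNA differed along with its form. Both libraries of line 1 lay apart from the rest, with 3334 to 4094 genes at least 2-fold apart from libraries of other lines. Lines 2 and 4 were close to each other, with 717 such genes between their WT-USP21 libraries and 703 between their ED-USP21 libraries, fewer than the 1333 and 1718 between the constructs within those lines. The sources used here do not say whether lines 2 and 4 are independent isolates. Of 10 ductal and epithelial markers, 9 had a mean of at least 1 CPM. Krt18, a keratin of simple epithelia, had a mean of 3134 CPM. Epcam reached 1 CPM only through line 1, with means of 4.37 CPM in line 1 and 0.172 CPM in lines 2 to 4. The marker below 1 CPM was Cldn4, at 0.165 CPM in line 1 and 0.0444 CPM in lines 2 to 4. Markers of endothelium, fibroblasts, leukocytes, neurons and acinar cells summed to 1.85 to 19.1 CPM per list in each library. The measurements are of bulk RNA, in which fewer cells of a type and less RNA per cell cannot be told apart.

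EphB receptors are transmembrane tyrosine kinases, and ephrin-B ligands are themselves transmembrane proteins, so a contact between neighbouring cells signals forward into the receptor cell and in reverse into the ligand cell. The usual outcome is repulsion and sorting of cells. In the intestinal crypt, Ephb2 and Ephb3 are well-known Wnt target genes whose products position cells along the crypt axis. Ephb4 with Efnb2 is the pair known from the separation of arteries and veins, and Ephb6 has a kinase domain that lacks catalytic activity.

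The regions upstream of the start sites of Ephb2, Ephb3 and Ephb4 are shown because Ephb2 and Ephb3 differed most between the constructs among the members and Ephb4 was the most abundant receptor. RefSeq promoter entries on build GRCm38.p6, a later build than the mm9 named for the counts, matched 7 of the 8 members; Efnb3 was not matched. The 250 bases before each start site are written on the strand of the gene, with matches to the E-box letters CANNTG in capitals. The Ephb2 region is chr4:136836013-136836262 on the minus strand, that of Ephb3 is chr16:21204545-21204794 on the plus strand and that of Ephb4 is chr5:137349859-137350108 on the plus strand.
Ephb2: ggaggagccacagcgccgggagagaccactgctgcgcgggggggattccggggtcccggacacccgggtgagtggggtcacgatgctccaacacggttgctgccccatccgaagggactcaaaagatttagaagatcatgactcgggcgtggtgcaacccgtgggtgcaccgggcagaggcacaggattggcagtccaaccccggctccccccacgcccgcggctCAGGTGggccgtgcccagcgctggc
Ephb3: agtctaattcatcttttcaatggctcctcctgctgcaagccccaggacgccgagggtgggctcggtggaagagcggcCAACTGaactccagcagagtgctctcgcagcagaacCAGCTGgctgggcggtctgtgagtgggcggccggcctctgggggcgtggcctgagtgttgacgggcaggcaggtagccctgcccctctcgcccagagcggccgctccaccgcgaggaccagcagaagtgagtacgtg
Ephb4: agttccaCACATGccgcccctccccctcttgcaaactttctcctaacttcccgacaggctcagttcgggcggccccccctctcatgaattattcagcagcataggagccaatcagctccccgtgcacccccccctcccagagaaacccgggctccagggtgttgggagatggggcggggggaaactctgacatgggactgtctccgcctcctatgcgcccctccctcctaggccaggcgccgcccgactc
The GC content of these regions was 68.4% for Ephb2, 65.6% for Ephb3 and 64.0% for Ephb4, against a median of 52.4% over 32851 promoter entries cropped to the same length. CANNTG, whose letters read the same on both strands, occurred in 66.2% of all promoters. Ephb2 had 1 match, starting at -25 from the start site, and Ephb3 had 2, starting at -173 and -137. Ephb4 had 1, starting at -243. The GC box GGGCGG, searched on both strands and found in 32.7% of promoters, occurred 2 times upstream of Ephb3, 4 times upstream of Ephb4, 5 times upstream of Ephb6 and 3 times upstream of Efnb2. It had 0 matches upstream of Ephb1, Ephb2 and Efnb1. The core letters CTTTG of the TCF/LEF motif, the factors of the Wnt pathway, had 0 matches on either strand in the 7 regions and occurred in 48.6% of all promoters. The longer form CTTTGAT, which contains CTTTG, also had 0 matches in the 7 and occurred in 3.21% of promoters.

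The members differed widely in level. On the scale of CPM per kilobase of exon, which allows genes to be compared, Ephb4 was highest at a mean of 23.7 over the 8 libraries (range 18.4 to 34.5). Efnb2 followed at 17.0 (14.4 to 23.0) and Efnb1 at 13.1 (9.52 to 14.7). Each of these levels exceeded the next one in 8 of 8 libraries. With the length of the longest coding transcript instead, an alternative chosen after seeing the data, Ephb4 was above Efnb2 in only 3 of 8 libraries, so the order of these genes depends on the length used. A lower tier began with Ephb3 at a mean level of 1.77 CPM per kilobase (0.313 to 2.96) and Ephb6 at 1.3 (0.877 to 2.05), and Ephb3 exceeded Ephb6 in only 6 of 8 libraries. Ephb2 had a mean level of 0.352 CPM per kilobase (0.0160 to 0.857) and Efnb3, which is best known from the nervous system, 0.322 (0.157 to 0.598). Those levels had no constant order over the 8 libraries. Ephb2 was above Efnb3 in 3 of 8, the WT-USP21 libraries of lines 2, 3 and 4. It was below Efnb3 in the WT-USP21 library of line 1 and in each ED-USP21 library. Ephb1 was at the bottom, with 2 reads in the ED-USP21 library of line 2 and 0 reads in the other 7 libraries, where a count of 0 allows up to 0.0289 to 0.0386 CPM (3 counts, for counting error only). Ephb2 thus had a low level and the widest relative range, its highest library being 53.4-fold above its lowest.

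**Figure D1:**
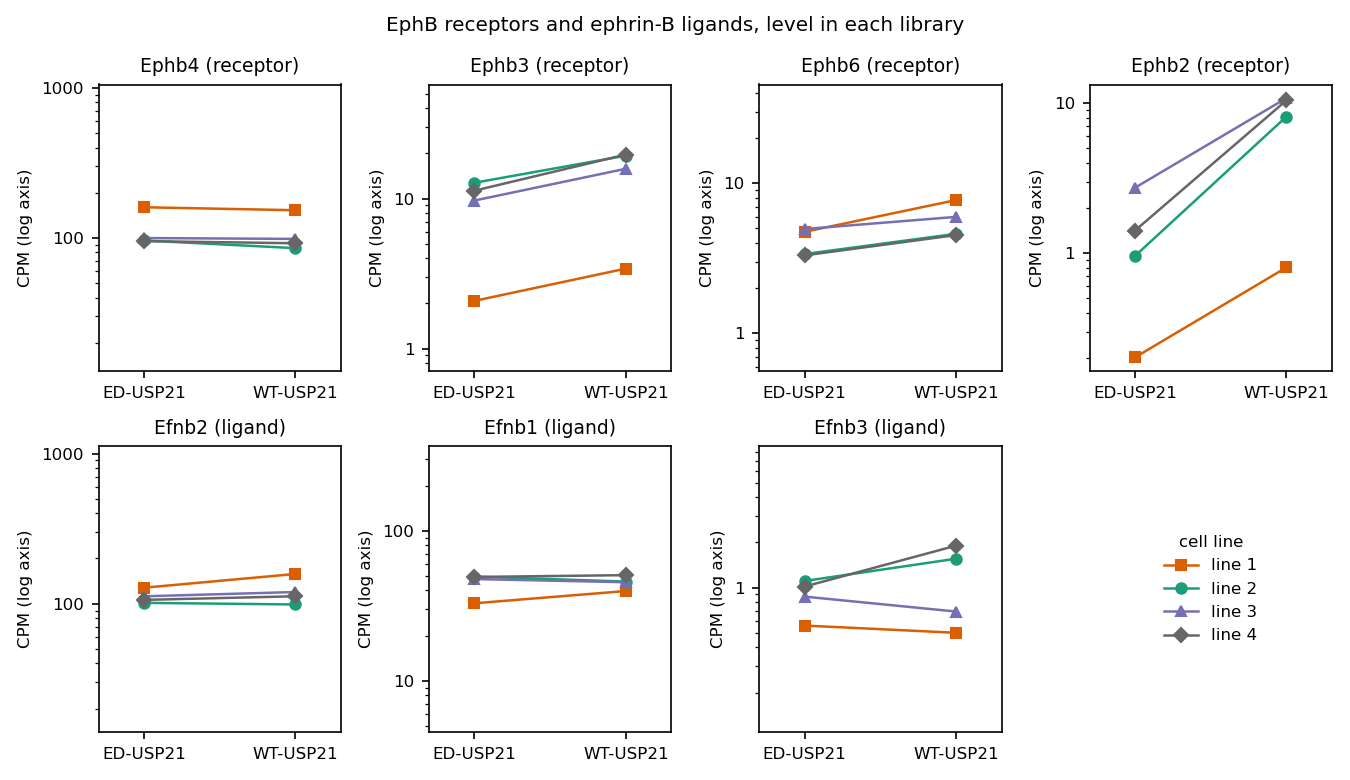
CPM of each of the 7 tested members on log axes that all span the same fold range, with the ED-USP21 library at the left, the WT-USP21 library at the right and a line joining both libraries of a cell line. Ephb2 lies higher in the WT-USP21 library of each line, from 0.804 against 0.202 CPM in line 1 to 10.4 against 1.42 CPM in line 4, whereas the points of Ephb4, Efnb1 and Efnb2 lie close together within lines.

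Ephb2 (ENSMUSG00000028664) had the largest difference between constructs among the members. Its level in the WT-USP21 libraries was 0.804, 8.14, 10.8 and 10.4 CPM in lines 1 to 4, from 74, 820, 1030 and 899 reads. In the ED-USP21 libraries it was 0.202, 0.959, 2.73 and 1.42 CPM, from 21, 71, 254 and 110 reads. The WT-USP21 library was higher in 4 of 4 lines, and the groups overlapped only because the WT-USP21 library of line 1 was below 3 of the ED-USP21 libraries. The means were 7.55 ± 4.65 and 1.33 ± 1.06 CPM (SD, n = 4 each). With the cell line as a block, edgeR put the difference, WT-USP21 minus ED-USP21, at 2.51 on the log2 scale (SE 0.25), a 5.69-fold higher level. Its adjusted p of 0.0692 missed the threshold of 0.05, although the gene ranked 11 of 16192 by unadjusted p. Only 4 genes, 0.0247% of those tested, passed that threshold.

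The separate lines showed how far the size of the Ephb2 difference varied. As differences of log2 CPM they were 1.88, 3.06, 1.98 and 2.86 in lines 1 to 4 (SD 0.60), or 3.68-, 8.32-, 3.93- and 7.27-fold. The exact 95% interval of the CPM ratio, for counting error only, was 2.42 to 6.80 in line 1 and 6.66 to 10.98 in line 2. The intervals were 3.45 to 4.56 in line 3 and 6.04 to 9.07 in line 4. The fold was therefore larger in lines 2 and 4 than in line 3 by more than counting error. Since lines 2 and 4 were also the closest pair of lines across all genes, their like folds are not shown to be independent.

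Ephb3 (ENSMUSG00000005958), the partner of Ephb2 in the crypt, had a smaller and more even difference. The WT-USP21 libraries held 3.41, 19.3, 15.8 and 19.6 CPM in lines 1 to 4. The ED-USP21 libraries held 2.08, 12.7, 9.70 and 11.3 CPM. As for Ephb2, the WT-USP21 library was the higher one in 4 of 4 lines, both line 1 libraries were the lowest of their group, and in lines 2 to 4 the groups did not overlap. The means were 14.5 ± 7.62 and 8.95 ± 4.74 CPM (SD, n = 4 each), and the edgeR log2 difference was 0.70 (SE 0.09, 1.63-fold, adjusted p = 0.0987, rank 26 of 16192). The line values of the log2 difference were 0.71, 0.60, 0.70 and 0.80, with an SD of 0.08. Ephb3 levels thus varied between lines at a nearly constant ratio between constructs.

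The outcome of the test of Ephb2 and Ephb3 turned on line 1. Without line 1, edgeR put the log2 difference of Ephb2 at 2.63 (SE 0.23, adjusted p = 0.00836) and that of Ephb3 at 0.71 (SE 0.07, adjusted p = 0.00995), so both were called higher in WT-USP21. In that fit 4.57% of 16326 genes were called, 2.51% higher and 2.06% lower, and DESeq2 without line 1 called 9.57%. Both fits keep lines 2 and 4, the closest pair of lines across all genes, which are not shown to be independent. With all lines but no filter on low counts, edgeR called both (adjusted p 0.0087 and 0.0417) among 0.223% of genes. The groups of 18.5% of genes did not overlap in lines 2 to 4, which is the background for the separation of these genes there. With each of the other lines left out in turn, edgeR's adjusted p was 0.395 to 0.675 for Ephb2 and 0.485 to 0.738 for Ephb3, while the log2 difference stayed at 2.30 to 2.70 and 0.67 to 0.74. DESeq2 with the same block called Ephb2 (adjusted p = 6.1e-18) and Ephb3 (adjusted p = 5.54e-10) higher with all lines, in a fit that called 2.56% of genes, 1.98% higher and 0.573% lower. Without the block, edgeR gave both an adjusted p of 0.9999.

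Ephb6 (ENSMUSG00000029869), the receptor with an inactive kinase, also had a higher level in the WT-USP21 library of each line. Its WT-USP21 levels were 7.73, 4.61, 5.97 and 4.52 CPM, and its ED-USP21 levels 4.75, 3.38, 4.96 and 3.31 CPM. The groups overlapped, since the ED-USP21 libraries of lines 1 and 3 were above the WT-USP21 libraries of lines 2 and 4. The means were 5.71 ± 1.5 and 4.10 ± 0.876 CPM (SD, n = 4 each), and edgeR put the log2 difference at 0.47 (SE 0.13, 1.38-fold, adjusted p = 0.387). DESeq2 with the block gave an adjusted p of 0.0441, and that call was lost without line 1, at 0.195. For edgeR the adjusted p without line 1 was 0.167, at a log2 difference of 0.39. In contrast to Ephb2 and Ephb3, the level of Ephb6 in the WT-USP21 libraries was highest in line 1.

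Ephb4 (ENSMUSG00000029710) was the most abundant of the receptors and had a small difference between constructs. Its WT-USP21 levels were 153, 85.5, 98.5 and 92.1 CPM and its ED-USP21 levels 160.0, 96.1, 99.8 and 95.2 CPM. Both line 1 libraries stood above all others, and the groups overlapped. The edgeR log2 difference was -0.08 (SE 0.05, adjusted p = 0.807), with line values of -0.07, -0.17, -0.02 and -0.05, lower in WT-USP21 in 4 of 4 lines. Of all genes tested, 7.79% were lower in 4 of 4 lines, and 16.8% had the same direction in 4 of 4. In the mouse annotation Ephb4 shares 33 exonic bases with Zan on the opposite strand, and whether reads were counted by strand is not known from the sources used here.

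The summed level of the receptors was similar with both constructs within each line. The summed receptor level was 35.6, 23.2, 26.0 and 24.8 CPM per kilobase in the WT-USP21 libraries of lines 1 to 4 and 36.1, 23.6, 24.5 and 23.2 in the ED-USP21 libraries. The share of Ephb4 in that sum was 92.6%, 79.4%, 81.5% and 79.9% in WT-USP21 and 95.6%, 87.7%, 87.8% and 88.4% in ED-USP21, higher in ED-USP21 in each line. The share of Ephb3 was 12.5%, 9.13% and 11.9% in the WT-USP21 libraries of lines 2 to 4 and 8.12%, 5.96% and 7.32% in their ED-USP21 libraries. In line 1 it was 1.44% and 0.869%. Ephb2 accounted for 2.78%, 3.29% and 3.33% of the receptor level with WT-USP21 in lines 2 to 4 and for 0.322%, 0.885% and 0.484% with ED-USP21. Even in WT-USP21 libraries Ephb2 was thus a minor part of the EphB RNA.

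**Figure D2:**
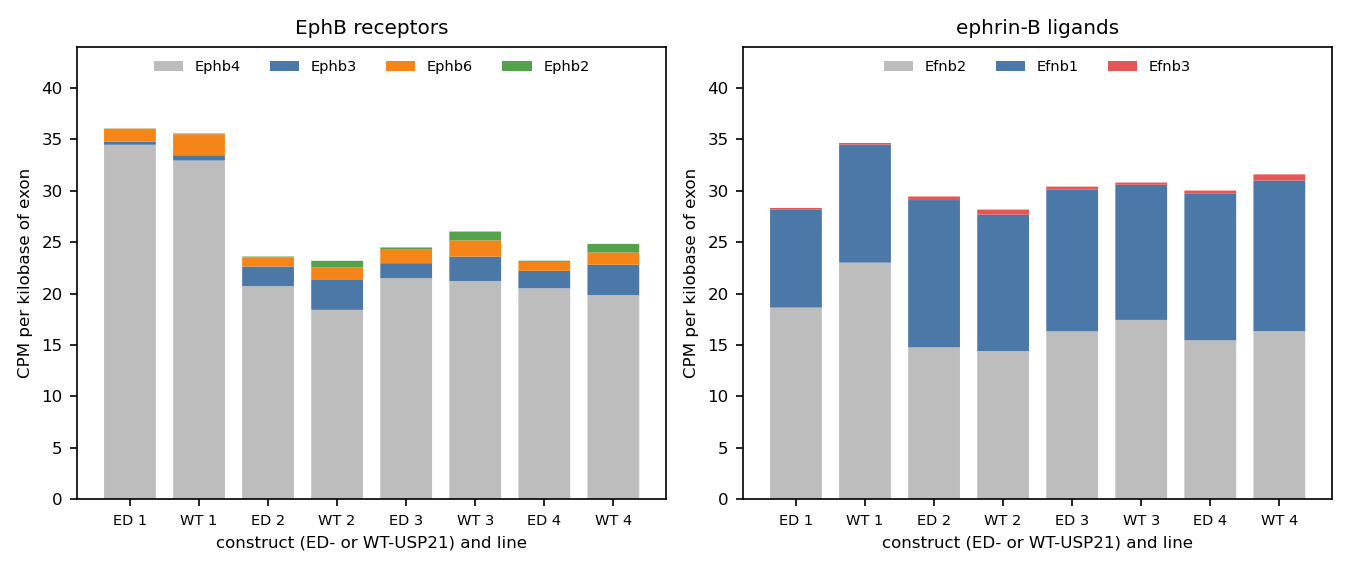
Stacked bars of CPM per kilobase of exon for the receptors and for the ligands in each of the 8 libraries, coloured by member. Ephb4 fills 79.4% to 95.6% of each receptor bar, and Efnb2 with Efnb1 fill nearly all of each ligand bar.

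In the edgeR fit the ligand genes had smaller differences than Ephb2, Ephb3 and Ephb6, but those of Efnb2 and Efnb3 were larger in size than that of Ephb4. Efnb1 (ENSMUSG00000031217), an X-linked gene, had levels of 39.7, 45.8, 45.4 and 50.6 CPM in the WT-USP21 libraries of lines 1 to 4 and of 32.9, 49.5, 47.7 and 49.2 CPM in the ED-USP21 libraries. The means of 45.4 ± 4.48 and 44.8 ± 8.0 CPM (SD, n = 4 each) were closer than the spread within either group. The edgeR log2 difference was 0.03 (SE 0.08, adjusted p = 0.955). Its sign varied over lines, at 0.27, -0.11, -0.07 and 0.04, and it was -0.04 without line 1 (edgeR adjusted p = 0.796).

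Efnb2 (ENSMUSG00000001300), the ligand known for binding Ephb4, had levels of 158, 98.8, 119.5 and 112 CPM with WT-USP21 and 128, 101, 112 and 106 CPM with ED-USP21. The groups overlapped, and the library that stood out was that of line 1 with WT-USP21. The edgeR log2 difference was 0.11 (SE 0.07, adjusted p = 0.761), with line values of 0.30, -0.04, 0.09 and 0.08. Efnb3 (ENSMUSG00000003934) was low, with 46, 157, 66 and 164 reads (0.5, 1.56, 0.692 and 1.90 CPM) in the WT-USP21 libraries and 58, 82, 81 and 79 reads (0.559, 1.11, 0.871 and 1.02 CPM) in the ED-USP21 libraries. It was higher with WT-USP21 in lines 2 and 4 and lower in lines 1 and 3. Its edgeR log2 difference was 0.24 (SE 0.28, adjusted p = 0.891). That value depended on single lines, at 0.0078 without line 4, 0.14 without line 2, 0.37 without line 1 and 0.43 without line 3.

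The ligand sum was 34.7, 28.2, 30.8 and 31.6 CPM per kilobase in the WT-USP21 libraries of lines 1 to 4. With ED-USP21 it was 28.3, 29.5, 30.4 and 30.0 CPM per kilobase. The ratio of the ligand sum to the receptor sum was 0.974, 1.22, 1.18 and 1.27 in WT-USP21 and 0.786, 1.25, 1.24 and 1.29 in ED-USP21. Both line 1 libraries had a ratio below 1, and in the other lines the ligand RNA exceeded the receptor RNA. With the longest transcript as length, the line 1 ratios were 1.19 (WT-USP21) and 0.957 (ED-USP21), so the side of 1 on which the WT-USP21 library falls depends on the length used. Under either length the ratios of line 1 were the lowest. Efnb2 made up 50.1% to 66.4% of the ligand level and Efnb1 33.1% to 48.7%. Efnb3 made up 0.453% to 1.89%.

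Set side by side, the log2 difference had a median of 0.59 over the 4 tested receptors and of 0.11 over the 3 ligands, against 0.00 over all genes tested. By line the receptor median was 0.70, 0.52, 0.48 and 0.62, and the ligand median 0.27, -0.04, -0.07 and 0.08. The receptor median was above the ligand median in 4 of 4 lines. With a line left out, the ligand median ran from 0.03 when line 4 was dropped, and 0.05 for line 1, to 0.14 for line 2, so its size rests on few lines. The receptor median was 0.32 when only genes with a mean of at least 5 CPM were kept, which leaves Ephb3 and Ephb4. By edgeR with the block, 0 of the 7 tested members passed the adjusted threshold, and at an unadjusted p under 0.05 there were 3 receptors higher with WT-USP21 (Ephb2, Ephb3 and Ephb6) and 0 ligands. The background of that count was 8.28% of genes, 5.4% higher and 2.88% lower. The same 3 receptors were higher in 4 of 4 lines, where 9.02% of all genes were, and DESeq2 called those 3 and 0 ligands, where 1.98% of all genes were called higher. With all 4 lines, the CPM of the groups overlapped for each of the 7 members, and they did not overlap in 1.78% of genes.

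**Figure D3:**
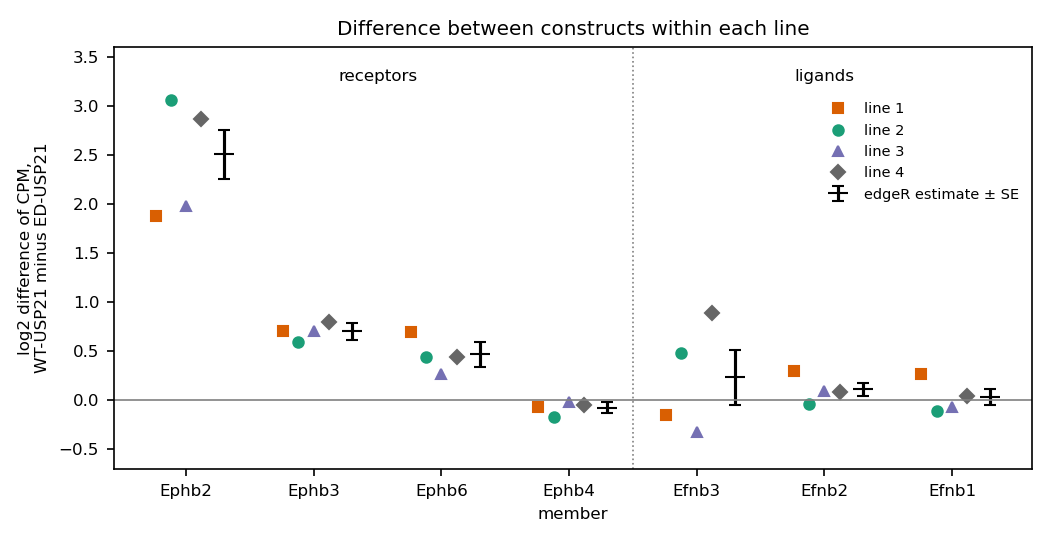
Log2 CPM difference, WT-USP21 minus ED-USP21, of the 7 tested members, with 1 point per cell line and the edgeR estimate with its SE. The 4 points of Ephb2 lie between 1.88 and 3.06 and those of Ephb3 between 0.60 and 0.80, while the points of Efnb1, Efnb2 and Efnb3 lie on both sides of 0.

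Marker sums of other cell types were set beside the receptor values. The summed level of 10 endothelial markers was 5.29 to 9.34 CPM in the WT-USP21 libraries and 1.85 to 3.69 CPM in the ED-USP21 libraries, without overlap. Of single genes tested, 1.78% did not overlap between the groups. Only 2 of the 10 had a mean of at least 1 CPM. The median log2 difference of the 4 tested was 1.18. The leading one was Kdr, a VEGF receptor, at 4.81 ± 3.31 CPM with WT-USP21 and 0.327 ± 0.219 CPM with ED-USP21 (SD, n = 4 each). Kdr averaged 0.0314 CPM in line 1 and 3.42 CPM in lines 2 to 4. Cdh5 had means of 0.743 CPM with WT-USP21 and 0.227 CPM with ED-USP21, higher with WT-USP21 in 4 of 4 lines, as were 9.02% of genes tested. Esam had means of 0.930 and 0.499 CPM and Eng of 1.17 and 1.05 CPM, each higher in 3 of 4 lines. Emcn had 0 reads in the 8 libraries, and Pecam1 stood at means of 0.0862 CPM with WT-USP21 and 0.0948 CPM with ED-USP21. In the same order, the means were 0.0408 and 0.0474 CPM for Tek and 0.0475 and 0.0325 CPM for Tie1. For Cldn5 they were 0.0181 and 0.00578 CPM, and for Vwf 0.106 and 0.108 CPM. Fibroblast markers summed to 7.42 to 19.1 CPM against 5.73 to 8.76 CPM, with Dcn, Lum and Thy1 at 0. Those fibroblast sums overlapped between the groups. The 19.1 CPM was that of line 4 alone, the other WT-USP21 libraries being at 7.42 to 10.2 CPM. The sums of the leukocyte, neuron and acinar lists also overlapped between the groups. Within each line the acinar sum was lower with WT-USP21. Nearly all of that sum was Cela1 (mean 6.52 CPM). Prss1, Amy2a5 and Ptf1a were at 0, and Cpa1 had means of 0.00534 CPM with WT-USP21 and 0.00538 CPM with ED-USP21. The log2 difference of Cela1 was -0.20 (edgeR adjusted p = 0.720), lower in 4 of 4 lines, as were 7.79% of genes tested. The part of such cells in the differences of the receptors was not tested.

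The levels of several members also differed among the lines. A test of the 4 lines, with the construct in the model, called Ephb3 (edgeR adjusted p = 0.000695), Ephb4 (0.00343), Ephb2 (0.00585) and Efnb2 (0.0436), which is 4 of 7 against 24.8% of all genes. DESeq2 called all 7, against 40.4% of all genes. The edgeR call of Efnb2 was lost with any line left out, at an adjusted p of 0.330 without line 1, 0.0986 without line 2, 0.0698 without line 3 and 0.0682 without line 4. Ephb2 averaged 0.503, 4.55, 6.77 and 5.93 CPM in lines 1 to 4, and Ephb3 averaged 2.75, 16.0, 12.7 and 15.5 CPM. Line 1 was thus 11.4-fold below the mean of the other lines for Ephb2 and 5.37-fold below it for Ephb3. It was 1.66-fold above that mean for Ephb4, whose line means were 156, 90.8, 99.1 and 93.6 CPM. For 6 of the 7 tested members, all but Ephb6, both line 1 libraries lay outside the range of the other 6 libraries, as they did for 50.3% of all genes. Without line 1, edgeR called 0 of the 7 as different among the remaining lines, with adjusted p from 0.231 for Ephb3 to 0.713 for Efnb1, where 0.398% of genes were called. Line 1 shares its background label with line 2, which resembled lines 3 and 4 in these genes.

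An interaction test asked whether the background label altered the difference between constructs, with 2 lines per label. The interaction log2 term, C57BL/6 lines minus FVB/C57Bl6 lines, was -0.18 (SE 0.51) for Ephb2 and 0.10 (SE 0.19) for Ephb3. The terms of the other 5 tested members ran from -0.22 for Ephb6 to 0.12 for Efnb3. By edgeR 0 of 16192 genes were called, with 2.32% at unadjusted p below 0.05. DESeq2 called 0.0432%. The edgeR adjusted p of the members was 0.990 to 0.993. With 4 lines and an SE of this size, a moderate dependence on the background was not detectable for Ephb2.

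The related EphA receptors and ephrin-A ligands were described in the same way. Of 9 EphA genes, 5 were tested, with a median log2 difference of -0.34, and edgeR called 0 of them, with 3 lower and 0 higher at an unadjusted p under 0.05, where 2.88% of all genes were lower and 5.4% higher. Epha4, a receptor that also binds ephrin-B ligands, had 104 ± 25.4 CPM with WT-USP21 and 130 ± 23.1 CPM with ED-USP21 (SD, n = 4 each, log2 difference -0.34, SE 0.07, edgeR adjusted p = 0.279). DESeq2 called Epha4 lower (adjusted p = 0.00912), the only EphA gene it called, where 0.573% of all genes were called lower. The other log2 differences among low EphA genes were -0.52 for Epha7, -1.27 for Epha10 and 0.18 for Epha1. Epha2, a receptor abundant in epithelial tumours, stood at means of 732 CPM with WT-USP21 and 718 CPM with ED-USP21, a log2 difference of 0.02. All 5 ephrin-A genes were tested, with a median of 0.44 and 0 calls by edgeR. At an unadjusted p under 0.05 there were 2 higher with WT-USP21 and 1 lower, against 5.4% and 2.88% of all genes. DESeq2 called 1, Efna4, which differed by 0.44 on the log2 scale (adjusted p = 0.00991). It called 1.98% of all genes higher. The log2 difference was 1.91 for Efna3 and -0.22 for Efna1, both below 0.05 by unadjusted p alone, and 0.64 for Efna2. Efna3 was low, at means of 0.392 CPM with WT-USP21 and 0.0978 CPM with ED-USP21.

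Most genes that act below the receptors had small differences. In the list of forward signalling genes (adaptors, Src family kinases, exchange factors and further effectors), 34 of 36 were tested, and the median log2 difference was 0.03. By edgeR 0 were called, while 3 were higher and 1 lower at unadjusted p below 0.05. Of all genes tested, 5.4% were higher and 2.88% lower at that p. DESeq2 called 2 higher and 1 lower, where 1.98% of all genes were called higher and 0.573% lower. The gene for the exchange factor kalirin, Kalrn, had 15.0 ± 8.65 CPM with WT-USP21 and 7.63 ± 4.36 CPM with ED-USP21 (SD, n = 4 each, log2 difference 0.96, SE 0.08, edgeR adjusted p = 0.0632). Samd5, which encodes a protein with a sterile alpha motif, had 113 ± 22.4 and 79.3 ± 16.3 CPM (SD, n = 4 each, log2 difference 0.51, SE 0.05, edgeR adjusted p = 0.0705). The exchange factor gene Vav3 differed the other way, by -1.3 on the log2 scale (SE 0.27, adjusted p = 0.273 by edgeR and 0.000596 by DESeq2). The 13 tested genes of ephrin-B reverse signalling had a median of 0.00, with 0 called by edgeR and 1, the phosphatase gene Ptpn13, by DESeq2 (log2 difference 0.28, adjusted p = 0.0352). At unadjusted p below 0.05 there was 1 higher and 0 lower, against the same shares of all genes. The junction gene Tjp1 had a log2 difference of -0.21 and the polarity gene Pard6b one of -0.12. Fgfr1, a growth factor receptor, had 1.59 at means of 0.164 and 0.0507 CPM.

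Proteases that can cleave Eph proteins and ephrins, with the gamma-secretase subunits, had a median log2 difference of 0.04 over 11 tested genes. Both edgeR and DESeq2 called 0 of them, with 2 higher and 1 lower by edgeR at an unadjusted p under 0.05. Of all genes tested, 5.4% were higher and 2.88% lower at that p. The membrane protease gene Mmp14 had 105 ± 11.7 CPM with WT-USP21 and 90.6 ± 10.01 CPM with ED-USP21 (SD, n = 4 each, log2 difference 0.21, edgeR adjusted p = 0.405). Adam12 had a log2 difference of 0.84, Adam8 of -0.34 and Psen2 of 0.27. Adam10, the sheddase best known for ephrins, had a log2 difference of -0.06. The 7 tested genes of other EphB partners had a median of -0.04, with 0 called by either tool and 1 lower at an unadjusted p under 0.05, the afadin gene listed as Mllt4 (-0.19). Syndecan genes had log2 differences of 0.15 (Sdc4) and 1.27 (Sdc2), and the receptor subunit gene Grin1 had -1.23 at means of 0.203 and 0.470 CPM. The Sdc2 value had an SE of 0.72, at means of 1.58 and 0.881 CPM. Its line values were 4.10, -0.10, 0.37 and 1.34, and without line 1 the edgeR log2 difference was 0.53.

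Ephb2 and Ephb3 are Wnt targets in the gut, and other Wnt target genes were taken as a list, which was chosen with earlier results of these data known and is no independent evidence of a direction. Of 12 genes 7 were tested, with a median log2 difference of 0.68. By edgeR 0 were called with all lines, and at an unadjusted p under 0.05 there were 5 higher and 0 lower. At that p 5.4% of all genes were higher and 2.88% lower. Of those 7, edgeR without line 1 called 5 higher, where 2.51% of all genes were, and DESeq2 with all lines called 5, where 1.98% were. Sp5, tested only without line 1, was also called there (edgeR adjusted p = 0.0244). The feedback inhibitor Axin2 stood at 12.01 ± 7.61 CPM with WT-USP21 and 0.130 ± 0.124 CPM with ED-USP21 (SD, n = 4 each, edgeR adjusted p = 0.197). Lgr5, the crypt stem cell marker, stood at 1.83 ± 0.845 and 0.0159 ± 0.0258 CPM (SD, n = 4 each, edgeR adjusted p = 0.0705). Rnf43, a ubiquitin ligase that limits Wnt receptors, had a log2 difference of 0.68 (edgeR adjusted p = 0.131). Tcf7, a factor of the TCF family, had one of 1.2 (edgeR adjusted p = 0.104). The fifth gene was Cd44, a hyaluronan receptor, with a log2 difference of 0.41. Sox9, a ductal and crypt factor, had -0.15 and Znrf3 0.17, both with edgeR adjusted p above that of the genes just given (0.851 and 0.787).

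**Figure D4:**
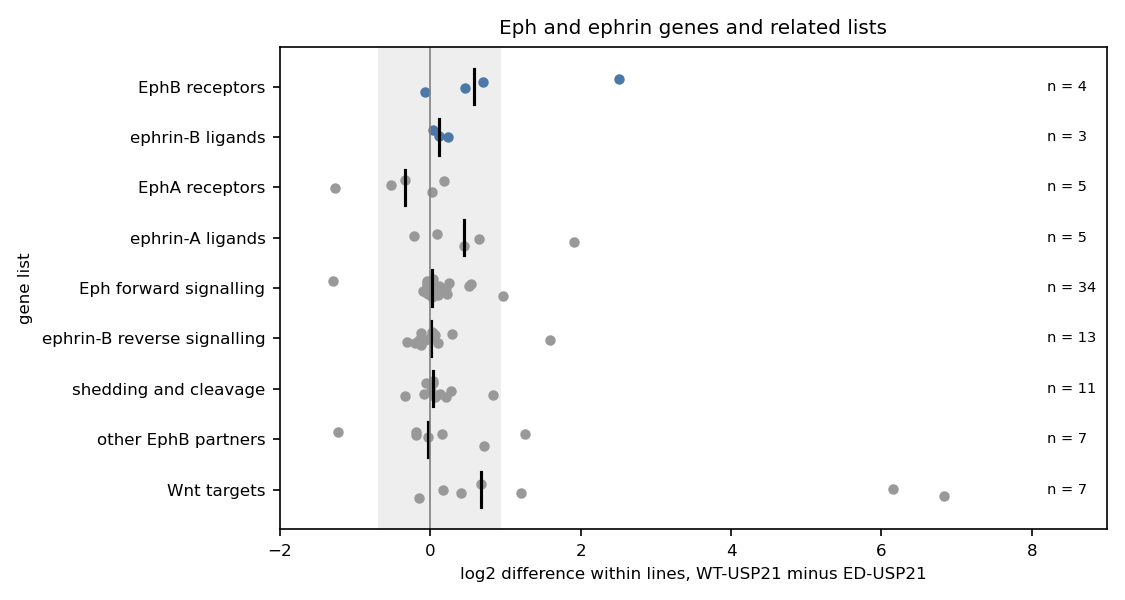
Log2 difference, WT-USP21 minus ED-USP21, of each tested gene in 9 gene lists, with black bars at list medians and a grey band for the central 95% of all genes tested, from -0.69 to 0.93. Ephb2 at 2.51 lies beyond the band, the ligands lie inside it, and the median bars of the receptors (0.59) and the Wnt targets (0.68) are the highest.

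The likeness of expression patterns was measured as Pearson's r of log2 CPM over the 8 libraries against 12339 genes with a mean of at least 1 CPM. These libraries share lines and line 1 lies apart, so r over the 6 libraries of lines 2 to 4 is given beside it. The genes were picked for the highest r among 12339 over libraries that include those 6. Both values are therefore high partly by that choice, and the second is no independent check. The gene most like Ephb2 was 2310007B03Rik (r 0.981, and 0.972 in lines 2 to 4), followed by Hs6st2, which encodes a heparan sulfate sulfotransferase (0.979 and 0.959), and by Matn3, which encodes a matrix protein (0.973 and 0.936). Ephb3 was most like Fam219a (0.996 and 0.993) and the Notch ligand gene Dll4 (0.993 and 0.935). Ephb6 was most like Tmem53 (0.978 and 0.972). For Ephb4 the leading gene was Large (0.997 over all libraries), with r of 0.925 in lines 2 to 4. Efnb1 was most like Slc25a47 (0.988 and 0.846), Efnb2 most like Fam135a (0.989 and 0.931) and Efnb3 most like Gm17275 (0.991 and 0.991).

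Among the members themselves, r over the 6 libraries of lines 2 to 4 was 0.76 between Ephb2 and Ephb3 and 0.81 between Ephb2 and Ephb6. Between Ephb3 and Ephb6 r was only 0.31, and between Ephb2 and Ephb4 it was -0.36. The r was -0.72 between Ephb3 and Ephb4 and -0.78 between Ephb4 and Efnb3. Efnb2 and its receptor Ephb4 had an r of 0.65. These pairs are only some of those among the tested members. The values describe 6 libraries that hold 3 lines with each construct, so they mix differences between lines with those between constructs.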

How the data were processed

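RNA levels were measured in 8 libraries, 4 per construct, 1 for each of 4 cell lines. The deposited values are raw read counts per gene, which the authors made on build mm9. The submitters' processing notes list CASAVA, STAR, TopHat, Cufflinks and HTSeq. Versions, roles, annotation and strand setting are not given there. The row for reads in no gene, 11.4% to 20.6% of a library's counts, was left out.

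The counts were tested in R 4.3.3 with the quasi-likelihood test of edgeR 4.0.16 (TMM scaling, default filter on low counts), with the cell line as a block, and p-values were Benjamini-Hochberg adjusted over 16192 genes. The line numbers pair the libraries because the labels give both libraries of a number to the same cell line. As a check, both libraries' deviations from the group means were correlated over genes, at 0.770, 0.503, 0.468 and 0.347 in lines 1 to 4. Between lines 2 and 4 the values were 0.430 and 0.364, above that of line 4 itself, so for line 4 the pairing rests on the labels. CPM used TMM-adjusted totals, and log2 CPM a prior count of 2. The CPM per kilobase used the exon union of GENCODE vM21 gene models. The SE is the log2 difference over the square root of F. The scripts were tested on simulated data. Alternatives were DESeq2 1.42.0, limma 3.58.1, other filters and scalings, no block and each line left out. The p-values of the fit within lines rest on how the construct difference varied over these lines and no others. For each gene, edgeR moderates that spread toward the trend over all genes tested. With 1 library per construct and line, that spread also holds variation between libraries. In the test among lines, the line differences are the effect tested. Counting intervals cover counting error only.

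Named genes were the members, the 4 genes of lowest p per list and the 3 genes most like each member. Epha2, Adam10, Cd44, Sox9, Znrf3 and Sp5 were added after their values were seen. So were the markers Krt18, Epcam, Cldn4, Kdr, Cdh5, Esam, Eng, Pecam1, Tek, Tie1, Cldn5, Vwf, Cela1, Cpa1 and those at 0. The members and lists were chosen with earlier results of these data known. An allele shared by all libraries is not reported here.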

Additional observations from a re-analysis of the deposited data

Results flagged for a closer look

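In 23 groups of 4 values, the CPM of each tested member and of Usp21 per construct and each tested member's log2 differences over the lines, the gap between an extreme value and its neighbour was compared with the group's range, and a share above Dixon's critical value was singled out. Chance gives about 1 in 20 such groups, or 1.15 here. There were 2. Ephb4 stood at 160.0 CPM in the ED-USP21 library of line 1, a gap of 0.929 of the range above the other ED-USP21 libraries. Efnb1 stood at 32.9 CPM in the same library, a gap of 0.890 of the range below the others. Both come from line 1, which lay apart in 50.3% of genes.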

How the results depend on the processing

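Over the alternatives, the log2 difference of Ephb2 stayed at 2.30 to 2.70 and that of Ephb3 at 0.67 to 0.74. Ephb2 passed the adjusted threshold in 4 of 10 alternatives and Ephb3 in 4 of 11. For both genes these include the edgeR and DESeq2 fits without line 1. The filter at a mean of at least 5 CPM removed Ephb2, whose mean was 4.44 CPM. The number of genes called within lines depended on the fit more than the members' values did: 4 with edgeR and the block, 58 with no filter on low counts, 0 with a mean of at least 5 CPM and 406 with DESeq2. Leaving out a line gave 0 to 746, the highest without line 1, and DESeq2 without line 1, chosen after seeing the data, gave 1502. Without the replicate block, edgeR called 0 genes. The receptor median was 0.47 with no filter, which brings in Ephb1, and 0.32 with a mean of at least 5 CPM, which leaves 2 receptors. The difference of Efnb1 turned to -0.042 without line 1, the lowest of -0.042 to 0.080 with a line left out, and to -0.047 there with DESeq2. The interaction with the background label gave 7 calls with DESeq2 and 0 with edgeR. The test among lines called 4019 genes, 6534 with DESeq2 and 65 (without line 1) to 3261 with a line left out. Efnb2 stood at 24.4 CPM per kilobase when the longest transcript, chosen after seeing the data, gave the length. The lowest Ephb2 level rested on 21 reads. Except where a setting itself removes genes or libraries, the cause was not tested.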
